A study of Danio rerio with 12 samples.

Results

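The genes described here act in translation initiation, RNA unwinding, splicing, transcription by the nuclear RNA polymerases and ribosome assembly. They were chosen by symbol alone, without regard to case, as every row of the table whose gene symbol starts with eif, ddx, dhx, srsf, hnrnp, snrp, sf3, prpf, lsm, polr, nop or utp, or with rpl or rps followed by a digit. The rule gave 45 of 5134 rows, each symbol on 1 row. They are 13 initiation genes (eif), 12 helicase genes (ddx), 9 genes placed with splicing by their prefix (5 hnrnp, 2 srsf and 2 lsm), 4 polymerase subunit genes (polr), 3 ribosome biogenesis genes (2 utp and 1 nop), 1 ribosomal protein gene and 3 ribosomal S6 kinase genes that the rps prefix takes in. No dhx, snrp, sf3 or prpf gene was on a row. The gene name table lists 352 zebrafish genes with these prefixes, so 12.8% of them were measured, and only 1 of its 43 rpl genes was. The label of the set is therefore broader than its measured content: the core ribosomal proteins and the core spliceosome proteins are almost absent from it. In 32 of the 45 the symbol is in upper case and does not say which copy, a or b, of a gene duplicated in zebrafish is meant.

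RNA came from zebrafish embryos that all carried the rx3:GFP reporter, and it was hybridised to 12 single-colour NimbleGen expression arrays, 4 for each of 3 groups. The sema6A morphants had received an antisense morpholino against Semaphorin6A, a transmembrane semaphorin, and the plexinA2 morphants one against PlexinA2, a semaphorin receptor, both at the one-cell stage. The control embryos are labelled wild-type, no injection is named for them, and their arrays are titled UIC. All were collected at 18 somites after growth at 25 °C, a stage the labels also give as 18 hours after fertilisation. A morpholino is an oligonucleotide that pairs with its target RNA and blocks its translation or splicing. No control morpholino is named, so an effect of injection and an effect of losing the target cannot be told apart in either comparison with control. The rows of the 2 targeted genes were not analysed here.

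Translation begins when initiation factors bring the small ribosomal subunit and the initiator tRNA to a capped mRNA, and kinases that phosphorylate the factor eIF2 slow this step under stress. DEAD-box helicases, the products of the ddx genes, unwind or remodel RNA at nearly every step from transcription and splicing to export, ribosome assembly and decay. Ribosomes are put together in the nucleolus from RNA made by RNA polymerases I and III and from proteins made in the cytoplasm, and mutants with faulty ribosome assembly or splicing are well known in zebrafish for cell death in the early nervous system. The roles given below are those of the human or yeast counterparts unless said otherwise.

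Values are log2 intensities, so a difference of 1 is a doubling, and values of different genes are not compared because they come from different probes. Array medians lay between 608 and 708 on the linear scale. Averaged over its pairs with the other 11 arrays, the rank correlation was 0.835 for control replicate 2, 0.876 for sema6A replicate 1 and 0.907 to 0.932 for the other 10. These are whole embryos, so fewer cells of a type and less RNA per cell cannot be told apart. No value was 0, and markers of several tissues were at lower summed log2 levels in the sema6A group. The 8 blood markers summed to 70.5 to 83.1 in sema6A morphants, 87.9 to 90.0 in plexinA2 morphants and 88.1 to 97.0 in controls, and 3 of the 8 fell in sema6A morphants against control. The 6 neural markers summed to 55.9 to 62.3 in sema6A morphants, 65.4 to 67.0 in plexinA2 morphants and 64.5 to 68.5 in controls, and 2 fell in sema6A morphants against control. The 13 muscle markers summed to 114 to 131 in sema6A morphants, 144 to 147 in plexinA2 morphants and 129 to 149 in controls. Sema6A replicate 1 alone was at 114.2, and the other sema6A arrays were at 129.9 to 131.5. Control replicate 4 alone was at 148.9, and the other controls were at 128.7 to 132.9. No muscle marker was called in sema6A morphants against control. In plexinA2 morphants 2 of them rose against control, and 3 were called lower in sema6A than in plexinA2 morphants. The 7 eye markers summed to 66.5 to 69.5 in sema6A morphants, 71.8 to 74.3 in plexinA2 morphants and 72.1 to 73.3 in controls, and none was called. A list of 12 genes of the p53 response, drawn up from earlier results of these data, had 10 genes that rose in each morphant group against control. The part of these shifts in the values below was not tested.

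In sema6A morphants, 2 of the 45 genes passed limma's test against control at an adjusted p under 0.05. The helicase gene ddx19a rose and the ribosomal protein gene RPL22L1 fell. The other 43 did not pass. The share of 4.44% stands beside 3.12% of all 5134 rows (1.99% higher and 1.13% lower), so it is near the background, and it rests on 2 genes. At an unadjusted p under 0.05 there were 13 of the 45, or 28.9%, against 20.6% of all rows. In 8 of the 45, or 17.8%, no sema6A array overlapped the range of the control arrays, against 10.9% of all rows. The sema6A arrays lay above the controls for 5 genes (11.1%, against 7.11% of all rows), eif2ak2, ddx19a, ddx43, DDX5 and RPS6KA3, and below for 3 genes (6.67%, against 3.78%), EIF4E2, DDX11 and RPL22L1.

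The median log2 fold change of the 45 genes was 0.19 in sema6A morphants against control, beside 0.06 over all rows. Of the 45, 29 were higher in sema6A morphants (64.4%), against 54.9% of all rows. By class the median was 0.52 for the 12 helicase genes (10 higher), 0.16 for the 13 initiation genes (9 higher), −0.11 for the 9 splicing genes (3 higher) and −0.25 for the 4 polymerase genes (1 higher). Without control replicate 2 the median of the 45 was 0.05 with 24 higher, that of the helicase genes 0.28 with 10 higher, that of the initiation genes −0.08 with 6 higher, that of the splicing genes −0.20 with 4 higher and that of the polymerase genes −0.08 with 2 higher. Differences between the classes were not tested. The 95% interval of the difference lay within 1 on either side of 0 for 19 of the 45 genes, and for the other 26 a difference of a doubling or a halving is within the interval.

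In plexinA2 morphants none of the 45 genes passed against control, where 2.86% of all rows did (147 rows). At an unadjusted p under 0.05 there were 6, or 13.3%, against 17.2% of all rows, and limma with array weights, which called 1629 rows, called 10 of the 45. The smallest adjusted p was 0.121, for RPL22L1. The groups did not overlap for 5 of the 45, or 11.1%, against 11.7% of all rows. In each of these 5 the plexinA2 arrays were the lower ones: EIF2B2, eif4a1b, EIF4E2, POLR2H and RPL22L1. PlexinA2 arrays were thus the lower ones in 11.1% of the 45, against 4.48% of all rows. They were the higher ones in 0 of the 45, against 7.27% of all rows. Of the 45, 17 were higher in plexinA2 morphants (37.8%), against 53.4% of all rows. The median log2 fold change of the 45 was −0.09, beside 0.04 over all rows. That median was at or just above 0 without control replicate 1 (0.0033) or control replicate 4 (0.0026) and −0.32 without control replicate 2. The interval lay within 1 on either side of 0 for 24 of the 45.

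Both comparisons use the same 4 control arrays, so their values are given side by side and no agreement is read from them. Of the 45 genes, 15 were higher than control in both morphant groups, 14 were lower in both, 14 were higher in sema6A morphants alone and 2 were higher in plexinA2 morphants alone.

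**Figure D1:**
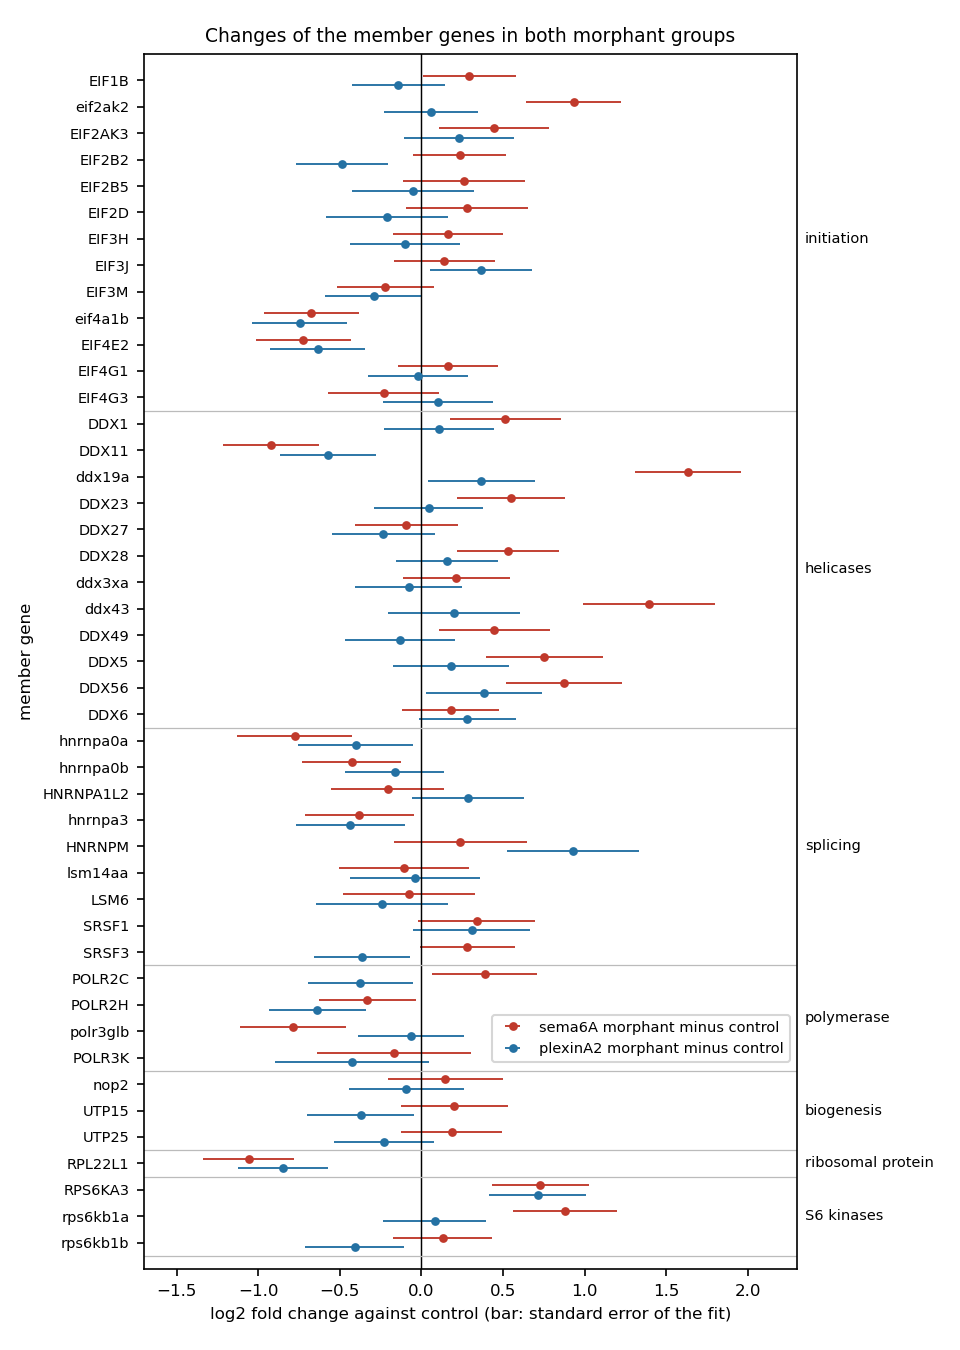
Log2 fold change of each of the 45 genes against control (x axis) in sema6A morphants (red, upper point) and plexinA2 morphants (blue, lower point), with the standard error of the fit as a bar and the genes grouped by role. The red point of ddx19a at 1.63 stands farthest right, both points of RPL22L1 lie at −0.85 or below, and most points lie within 1 of the zero line.

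Among the helicase genes, ddx19a (ENSDARG00000044325) had the clearest difference. Its human counterpart works at the cytoplasmic face of the nuclear pore, where it releases exported mRNA. Its log2 intensities were 9.55, 10.22, 10.32 and 10.55 in sema6A morphants, 8.75, 9.18, 8.12 and 9.53 in plexinA2 morphants, and 8.66, 8.25, 8.72 and 8.49 in controls. All 4 sema6A arrays lay above all 8 others, but the lowest of them, replicate 1, only just (9.548 against 9.535 in plexinA2 replicate 4). The plexinA2 arrays spread on both sides of the controls. The gene rose 3.10-fold in sema6A morphants against control, or by 1.63 ± 0.33 in log2 units (standard error of the fit, 4 arrays a group, limma adjusted p = 0.00882). The call held under all 21 alternatives tried, with adjusted p values between 0.000471 and 0.0373. In plexinA2 morphants the difference from control was 0.37 ± 0.33 (adjusted p = 0.597). Between the morphants it was 1.26 ± 0.33, or 2.40-fold higher in sema6A morphants, with an adjusted p of 0.0535 that did not pass. That comparison passed under 9 of the 21 alternatives, where adjusted p values lay between 0.00219 and 0.149.

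The second helicase gene with a large difference was ddx43 (ENSDARG00000022614), whose human counterpart is expressed mainly in germ cells and in some tumours. It had 10.11, 10.15, 9.94 and 10.48 in sema6A morphants, 8.69, 9.03, 9.19 and 8.98 in plexinA2 morphants, and 9.45, 7.22, 9.65 and 8.77 in controls. The sema6A arrays again lay above all others, and control replicate 2 was the lowest of the 12 by over 1 log2 unit. The difference was 1.39 ± 0.40 against control (adjusted p = 0.0625) and 1.20 ± 0.40 against plexinA2 morphants (adjusted p = 0.0921), and neither passed. Without control replicate 2 the first was 0.88 (adjusted p = 0.0874), and the second, whose value does not use controls, passed at an adjusted p of 0.0180. Without control replicate 3 the first was 1.69 and passed at 0.0295. Of the 21 alternatives, the first passed under 2 (adjusted p up to 0.185) and the second under 4 (up to 0.221).

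DDX11 (ENSDARG00000011072) ran the other way. Its counterpart is a DNA helicase of sister chromatid cohesion, although it carries the DEAD-box prefix. Its log2 intensities were 10.33, 9.83, 10.15 and 10.48 in sema6A morphants, 10.96, 10.49, 10.31 and 10.44 in plexinA2 morphants, and 10.97, 11.76, 11.03 and 10.72 in controls. The sema6A arrays lay below all controls, and the highest plexinA2 array reached into the control range. The difference from control was −0.92 ± 0.29 in sema6A morphants (adjusted p = 0.0837) and −0.57 ± 0.29 in plexinA2 morphants (adjusted p = 0.335). Control replicate 2 was the highest of all arrays. Without it the differences were −0.71 in sema6A morphants (limma adjusted p = 0.134) and −0.36 in plexinA2 morphants (adjusted p = 0.486).

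DDX5 and DDX56 were higher in sema6A morphants without passing. DDX5 (ENSDARG00000038068), named here after its values were seen, takes part in splicing and acts as a transcriptional coactivator. It had 13.90, 13.98, 14.02 and 14.02 in sema6A morphants, 13.07, 13.95, 13.02 and 13.60 in plexinA2 morphants, and 13.51, 12.02, 13.64 and 13.75 in controls. The sema6A arrays were close to each other and above every other array but plexinA2 replicate 2, which lay between them. The difference of 0.75 ± 0.36 from control (adjusted p = 0.240) was 0.35 without control replicate 2. DDX56 (ENSDARG00000020913), a nucleolar helicase of large subunit assembly, was 0.87 ± 0.36 above control in sema6A morphants (adjusted p = 0.171), where control replicate 2 at 6.83 was the lowest array, and 0.57 above it without that array.

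The other 7 helicase genes differed from control by −0.09 to 0.55 in sema6A morphants and by −0.23 to 0.28 in plexinA2 morphants, and none passed. They include DDX23, of the U5 particle of the spliceosome, DDX27 and DDX49 of nucleolar ribosome assembly, and DDX28 of mitochondrial ribosome assembly. They also include DDX1 of the tRNA ligase complex, ddx3xa of translation and DDX6, which represses mRNA and promotes its decapping.

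**Figure D2:**
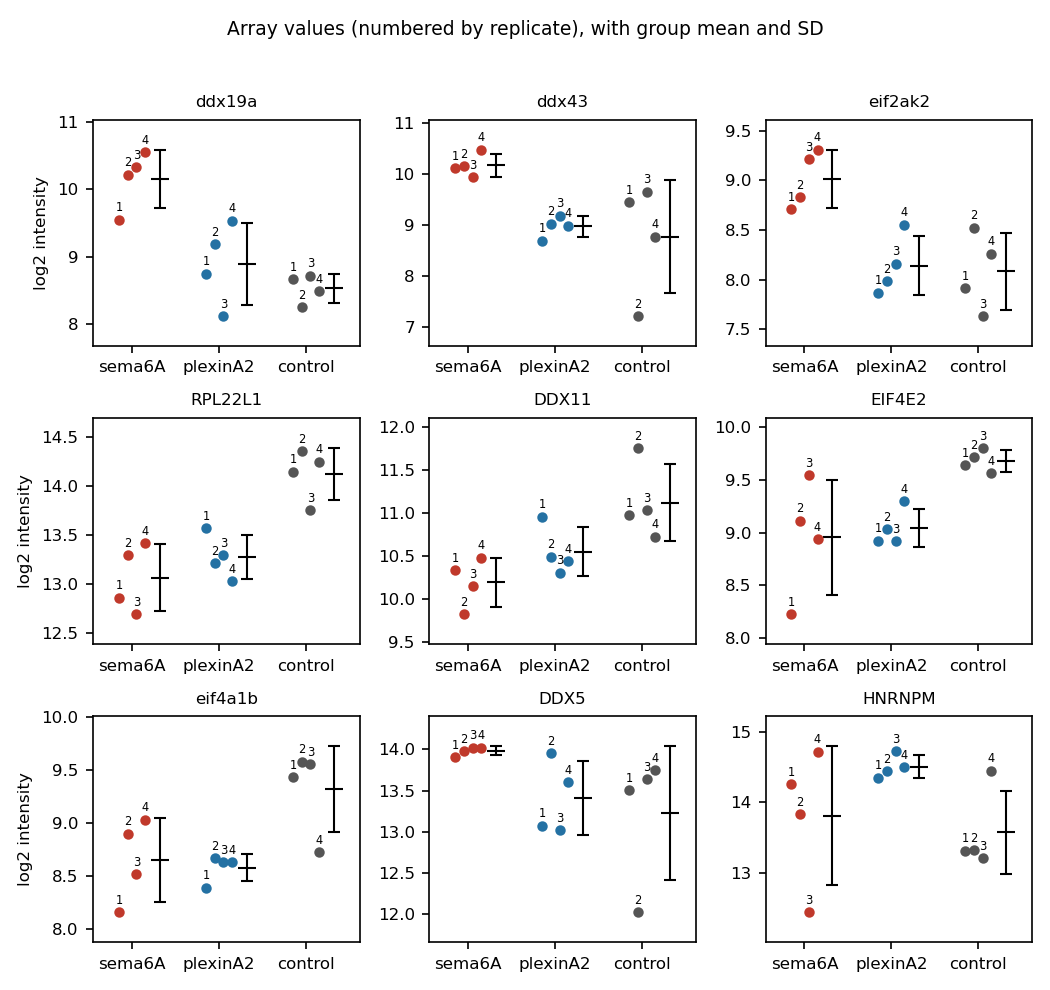
Log2 intensity (y axis) of 9 genes on every array, numbered by replicate, in sema6A morphants (red), plexinA2 morphants (blue) and controls (grey), with the group mean and SD (n = 4) as a black bar to the right. The 4 red points lie above all others for ddx19a, the lowest of them only just, and for ddx43. The grey points lie above all others for RPL22L1 and EIF4E2, and control replicate 2 is the lowest point for ddx43 and DDX5.

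Among the 13 initiation genes none passed in any of the 3 comparisons. The gene of smallest p against control in sema6A morphants was eif2ak2 (ENSDARG00000068729), which encodes PKR, a kinase that is switched on by double-stranded RNA and shuts down initiation by phosphorylating eIF2. It had 8.71, 8.83, 9.21 and 9.31 in sema6A morphants, 7.87, 7.98, 8.16 and 8.55 in plexinA2 morphants, and 7.91, 8.52, 7.63 and 8.26 in controls. Each sema6A array lay above all 8 others, and the plexinA2 and control arrays overlapped throughout. The difference was 0.93 ± 0.29 against control (adjusted p = 0.0790), 1.91-fold, and 0.87 ± 0.29 against plexinA2 morphants (adjusted p = 0.0875), 1.83-fold. Without control replicate 2 both passed, at adjusted p values of 0.0440 and 0.0438. Of the 21 alternatives, the first passed under 3 (adjusted p up to 0.202) and the second under 4 (up to 0.221). EIF2AK3, which encodes the eIF2 kinase of the unfolded protein response, differed from control by 0.45 ± 0.34 in sema6A morphants (adjusted p = 0.491) and by 0.23 ± 0.34 in plexinA2 morphants (adjusted p = 0.769).

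A pair of genes of the cap-binding step, EIF4E2 and eif4a1b, were lower in both morphant groups without passing. EIF4E2 (ENSDARG00000038585) encodes a cap-binding protein that competes with the main cap-binding factor and represses translation. It had 8.23, 9.11, 9.54 and 8.94 in sema6A morphants, 8.92, 9.03, 8.92 and 9.29 in plexinA2 morphants, and 9.64, 9.71, 9.80 and 9.56 in controls. All 8 morphant arrays lay below all 4 controls, the highest of them, sema6A replicate 3, only just. The difference from control was −0.72 ± 0.29 in sema6A morphants (adjusted p = 0.164) and −0.64 ± 0.29 in plexinA2 morphants (adjusted p = 0.271).

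The gene eif4a1b (ENSDARG00000003032) encodes the helicase that unwinds mRNA ahead of the small subunit. It had 8.15, 8.90, 8.52 and 9.03 in sema6A morphants, 8.39, 8.67, 8.63 and 8.63 in plexinA2 morphants, and 9.43, 9.58, 9.55 and 8.72 in controls. The plexinA2 arrays lay below every control, while control replicate 4 fell among the sema6A arrays. The difference was −0.67 ± 0.29 in sema6A morphants (adjusted p = 0.199) and −0.745 ± 0.29 in plexinA2 morphants (adjusted p = 0.203). The scaffold genes of the same complex, EIF4G1 and EIF4G3, did not pass: EIF4G1 differed from control by 0.16 in sema6A and −0.02 in plexinA2 morphants, and EIF4G3 by −0.23 in sema6A and 0.10 in plexinA2 morphants.

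EIF2B2 (ENSDARG00000041397) encodes a subunit of eIF2B, the factor that recharges eIF2 with GTP. It had 10.90, 11.52, 11.92 and 11.48 in sema6A morphants, 10.71, 10.85, 10.55 and 10.84 in plexinA2 morphants, and 11.41, 11.02, 11.54 and 10.93 in controls. The plexinA2 arrays lay below those of both other groups. The difference of sema6A from plexinA2 morphants was 0.72 ± 0.28 (adjusted p = 0.126), and that of plexinA2 morphants from control −0.49 ± 0.28 (adjusted p = 0.400). EIF2B5, another subunit of that factor, was 0.31 ± 0.37 higher in sema6A than in plexinA2 morphants (adjusted p = 0.600).

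The other initiation genes (EIF1B, EIF2D, EIF3H, EIF3J and EIF3M) differed from control by −0.22 to 0.29 in sema6A morphants and by −0.29 to 0.37 in plexinA2 morphants. The 3 measured eIF3 genes, whose products hold the small subunit ready for mRNA, did not share a direction: EIF3J was 0.14 above control in sema6A and 0.37 above it in plexinA2 morphants, and EIF3M was at −0.22 in sema6A and −0.29 in plexinA2 morphants.

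RPL22L1 (ENSDARG00000010244), the single ribosomal protein gene on a row, is the paralogue of RPL22 and is known from human and mouse cells and zebrafish to act in RNA splicing as well as in the ribosome. Its log2 intensities were 12.86, 13.29, 12.69 and 13.41 in sema6A morphants, 13.57, 13.21, 13.29 and 13.02 in plexinA2 morphants, and 14.14, 14.35, 13.75 and 14.24 in controls. All 8 morphant arrays lay below all 4 controls, and the morphant groups overlapped. The gene fell by 1.06 ± 0.28 in sema6A morphants against control (2.08-fold lower, limma adjusted p = 0.0437). The difference in plexinA2 morphants was −0.85 ± 0.28 (1.80-fold lower, adjusted p = 0.121). The difference between the morphants was −0.21 ± 0.28 (adjusted p = 0.632). The sema6A call was lost in 10 of the 12 fits that left out 1 array, with the largest adjusted p of 0.141 without sema6A replicate 3; it held without sema6A replicate 4 or control replicate 3. It was also lost with the replicate block (adjusted p = 0.0549), in a fit of only the groups compared (0.155), after quantile normalization (0.0528) and without control replicate 2 and sema6A replicate 1 together (0.0738), so it held under 7 of the 21 alternatives.

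None of the 9 genes of the splicing prefixes passed in any comparison. They encode heterogeneous nuclear ribonucleoproteins, which coat nascent RNA and often block splice sites, SR proteins, which often promote their use, and Lsm proteins. LSM6 belongs to rings that bind U6 snRNA or mRNA due for decay. The product of lsm14aa is a component of cytoplasmic P-bodies and not of the spliceosome.

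HNRNPM (ENSDARG00000061735), an hnRNP of alternative splicing, had the largest difference from control of the 45 genes in plexinA2 morphants. Its log2 intensities were 14.26, 13.83, 12.44 and 14.72 in sema6A morphants, 14.35, 14.44, 14.73 and 14.50 in plexinA2 morphants, and 13.32, 13.32, 13.21 and 14.45 in controls. The plexinA2 arrays lay close together, control replicate 4 lay among them, and the sema6A arrays spread over more than 2 log2 units. The difference was 0.93 ± 0.41 in plexinA2 morphants (adjusted p = 0.253) and 0.24 ± 0.41 in sema6A morphants (adjusted p = 0.795).

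The paralogues hnrnpa0a and hnrnpa0b were lower in the mean than control in both morphant groups. For hnrnpa0a (ENSDARG00000089302) the arrays had 11.43, 11.75, 10.96 and 12.42 in sema6A morphants, 11.44, 12.31, 12.32 and 12.004 in plexinA2 morphants, and 12.73, 11.63, 12.62 and 12.69 in controls. All 8 morphant arrays lay below 3 of the controls, and control replicate 2 lay among them. The difference was −0.78 ± 0.35 in sema6A morphants (adjusted p = 0.221) and −0.40 ± 0.35 in plexinA2 morphants (adjusted p = 0.593), and without control replicate 2 it was −1.04 in sema6A and −0.67 in plexinA2 morphants. For hnrnpa0b the differences were −0.43 in sema6A and −0.16 in plexinA2 morphants, and for hnrnpa3 they were −0.38 in sema6A and −0.43 in plexinA2 morphants.

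HNRNPA1L2 differed from control by −0.21 in sema6A and by 0.29 in plexinA2 morphants. SRSF3, an SR protein gene, was 0.64 ± 0.29 higher in sema6A than in plexinA2 morphants (adjusted p = 0.170). It passed at 0.0389 when control replicate 2 and sema6A replicate 1 were both left out. It passed under 2 of the 21 alternatives, with adjusted p values up to 0.374. SRSF1, LSM6 and lsm14aa differed from control by −0.11 to 0.34 in sema6A morphants and by −0.24 to 0.31 in plexinA2 morphants. These values depend on control replicate 2, which for SRSF1 was at 12.71 against 10.89 to 11.37 in the other controls. Without it SRSF1 was 0.74 above control in sema6A and 0.71 above it in plexinA2 morphants. In the same fit lsm14aa was at −0.43 in sema6A and −0.36 in plexinA2 morphants, and neither gene passed.

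The 4 polymerase subunit genes did not pass in any comparison. POLR2C (ENSDARG00000033596), of RNA polymerase II, had 12.55, 13.01, 12.79 and 13.00 in sema6A morphants, 11.97, 12.52, 11.87 and 11.94 in plexinA2 morphants, and 12.99, 11.53, 12.83 and 12.45 in controls. The sema6A arrays lay above the plexinA2 arrays, and the controls spread over nearly the whole span of both groups. The difference between the morphants was 0.76 ± 0.32 (adjusted p = 0.145).

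POLR2H (ENSDARG00000038505), a subunit shared by the nuclear RNA polymerases, had 12.24, 11.70, 11.60 and 12.44 in sema6A morphants, 11.45, 12.12, 11.24 and 11.95 in plexinA2 morphants, and 12.42, 12.58, 12.14 and 12.17 in controls. The plexinA2 arrays lay below every control, the highest of them only just (12.124 in replicate 2, against 12.142 in control replicate 3). The difference was −0.64 ± 0.30 (adjusted p = 0.278). For polr3glb (ENSDARG00000013734), of RNA polymerase III, sema6A morphants had 11.38, 12.12, 11.99 and 12.43, plexinA2 morphants 13.02, 12.88, 12.56 and 12.36, and controls 13.03, 11.93, 12.94 and 13.17. Apart from control replicate 2, the controls were above all sema6A arrays, and the difference was −0.79 ± 0.33 (adjusted p = 0.179), or −1.07 without that control (adjusted p = 0.0519). POLR3K of the same polymerase had its highest array in control replicate 2, at 11.96 against 9.25 to 10.07 in the other controls. Its difference from control was −0.17 in sema6A and −0.43 in plexinA2 morphants, and without that array 0.43 in sema6A and 0.18 in plexinA2 morphants.

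The 3 ribosome biogenesis genes were higher than control in the mean in sema6A morphants and lower in plexinA2 morphants, and none passed. UTP15 and UTP25 encode parts of the small subunit processome, which folds and cuts the precursor of the small subunit RNA, and nop2 encodes a methyltransferase of the large subunit RNA. UTP15 (ENSDARG00000002720) had 12.76, 12.74, 12.84 and 13.00 in sema6A morphants, 12.08, 12.41, 12.03 and 12.51 in plexinA2 morphants, and 13.20, 11.68, 13.24 and 12.40 in controls. The sema6A arrays lay above the plexinA2 arrays, and the controls spread beyond both groups. The difference between the morphants was 0.57 ± 0.33 for UTP15 (adjusted p = 0.266), 0.41 ± 0.31 for UTP25 (adjusted p = 0.388) and 0.24 ± 0.35 for nop2 (adjusted p = 0.675). Control replicate 2 was the lowest of the 12 arrays for all 3 genes, and without it all 3 were lower than control in sema6A morphants as well.

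The S6 kinase genes encode kinases of the growth signalling pathways and are no ribosomal proteins. For rps6kb1a (ENSDARG00000018399), whose product acts downstream of mTOR, sema6A morphants had 12.40, 12.01, 11.89 and 11.00, plexinA2 morphants 10.66, 10.97, 11.22 and 11.26, and controls 10.75, 10.92, 11.39 and 10.71. Apart from sema6A replicate 4, the sema6A arrays lay above all others. The difference was 0.88 ± 0.32 against control (adjusted p = 0.123) and 1.16 without sema6A replicate 4, when it passed at 0.0386. It passed under 2 of the 21 alternatives, with adjusted p values up to 0.270.

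The paralogue rps6kb1b was 0.13 ± 0.30 above control in sema6A morphants (adjusted p = 0.856) and at −0.41 ± 0.30 in plexinA2 morphants (adjusted p = 0.517). RPS6KA3 (ENSDARG00000035556), a kinase downstream of ERK, had 12.07, 11.31, 11.16 and 11.62 in sema6A morphants, 11.05, 11.76, 11.59 and 11.69 in plexinA2 morphants, and 11.05, 10.58, 11.12 and 10.50 in controls. Every sema6A array lay above the controls, and 3 of the 4 plexinA2 arrays did. The difference was 0.73 ± 0.30 in sema6A morphants (adjusted p = 0.167) and 0.71 ± 0.30 in plexinA2 morphants (adjusted p = 0.232).

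Set against each other, the morphant groups differed in none of the 45 genes at an adjusted p under 0.05, where 1.71% of all rows passed (88 rows). At an unadjusted p under 0.05 there were 8, or 17.8%, against 26.8% of all rows, and limma with array weights, which called 2273 rows, called 11 of the 45. The median difference was 0.26, sema6A minus plexinA2, beside 0.00 over all rows, and 33 of the 45 (73.3%) were higher in sema6A morphants, against 50.2% of all rows. The median stayed between 0.15 and 0.33 when any single morphant array was left out, and leaving out a control array cannot change it. The arrays did not overlap for 6 of the 45, or 13.3%, against 23.7% of all rows. In all 6 the sema6A arrays were the higher ones: eif2ak2, EIF2B2, ddx19a, ddx43, POLR2C and UTP15. Sema6A arrays were thus the higher ones in 13.3% of the 45, near the 10.8% of all rows. They were the lower ones in 0 of the 45, against 12.9% of all rows.

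By role, 10 of 12 helicase genes, 10 of 13 initiation genes, 3 of 3 biogenesis genes, 3 of 4 polymerase genes and 4 of 9 splicing genes were higher in sema6A than in plexinA2 morphants. Without control replicate 2, which changes the spread but not these values, ddx19a, ddx43 and eif2ak2 passed. When sema6A replicate 1 was also left out, EIF2B2, SRSF3 and POLR2C passed as well, and 880 of all 5134 rows did. Over all rows, 88 passed with all arrays and 6 to 495 in the fits without 1 array. The count for the fit without control replicate 2 alone is not given separately. The calls gained in these fits are therefore not read as particular to these genes.

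**Figure D3:**
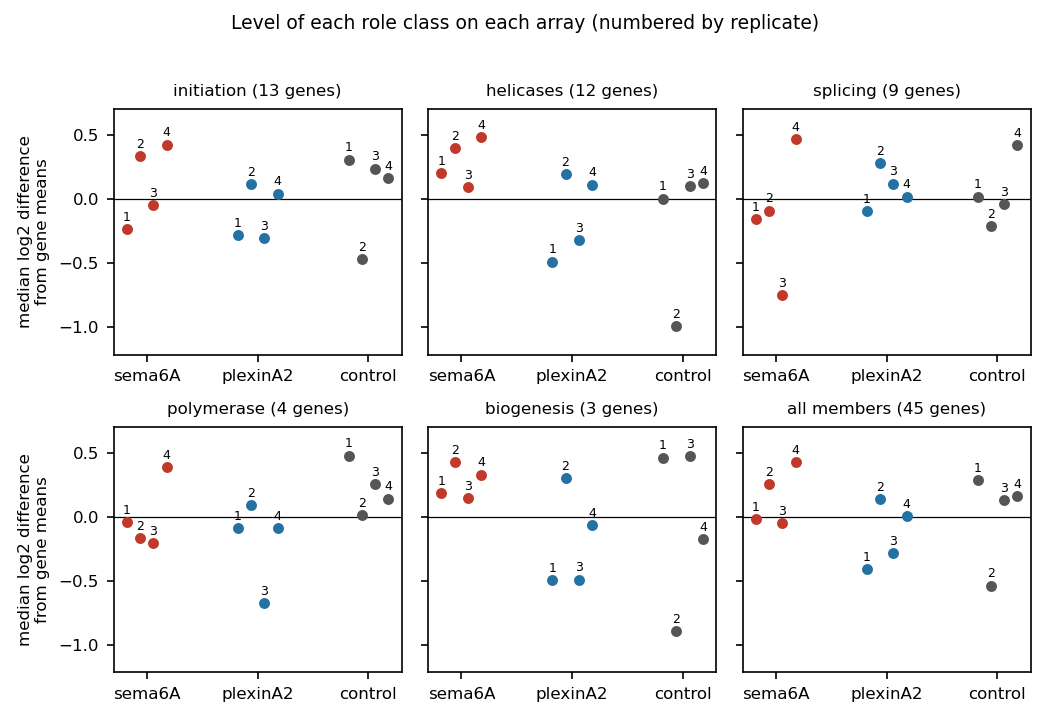
Median over the genes of a role class of the log2 difference from each gene's mean over the 12 arrays (y axis), for every array, numbered by replicate, in sema6A morphants (red), plexinA2 morphants (blue) and controls (grey). The helicase panel has all 4 red points above 0 and control replicate 2 at −0.99, and the ranges of the 3 groups overlap in each of the panels drawn.

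The level of a class on an array was taken as the median, over its genes, of the difference from each gene's mean over the 12 arrays. For the helicase genes it was 0.20, 0.40, 0.09 and 0.48 in sema6A morphants, −0.49, 0.19, −0.32 and 0.11 in plexinA2 morphants, and 0.00, −0.99, 0.10 and 0.12 in controls. All sema6A arrays were above 0, but only 3 of them lay above the highest plexinA2 and control arrays. For the splicing genes it was −0.16, −0.09, −0.75 and 0.47 in sema6A morphants, −0.10, 0.28, 0.12 and 0.02 in plexinA2 morphants, and 0.02, −0.21, −0.04 and 0.42 in controls. The sema6A arrays held both the lowest and the highest of these values.

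Over all 45 genes the level was 0.15 ± 0.23 in sema6A morphants, −0.14 ± 0.25 in plexinA2 morphants and 0.01 ± 0.37 in controls (mean ± SD, n = 4 arrays each). The differences between these means were of the size of the spread within a group. The largest single deviation was that of control replicate 2, at −0.54. That array was the lowest of the 12 for 19 of the 45 genes, or 42.2%, against 22.5% of all rows. Of these 19, 17 were initiation, helicase or biogenesis genes, the classes that hold most of the 45. By class that array was the lowest for 7 of 13 initiation, 7 of 12 helicase and 3 of 3 biogenesis genes. It was the lowest for 1 of 9 splicing and 1 of 4 polymerase genes, and the differences between classes were not tested. The same array was the highest of the 12 for 8 of the 45 genes, or 17.8%, against 19.5% of all rows.

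**Figure D4:**
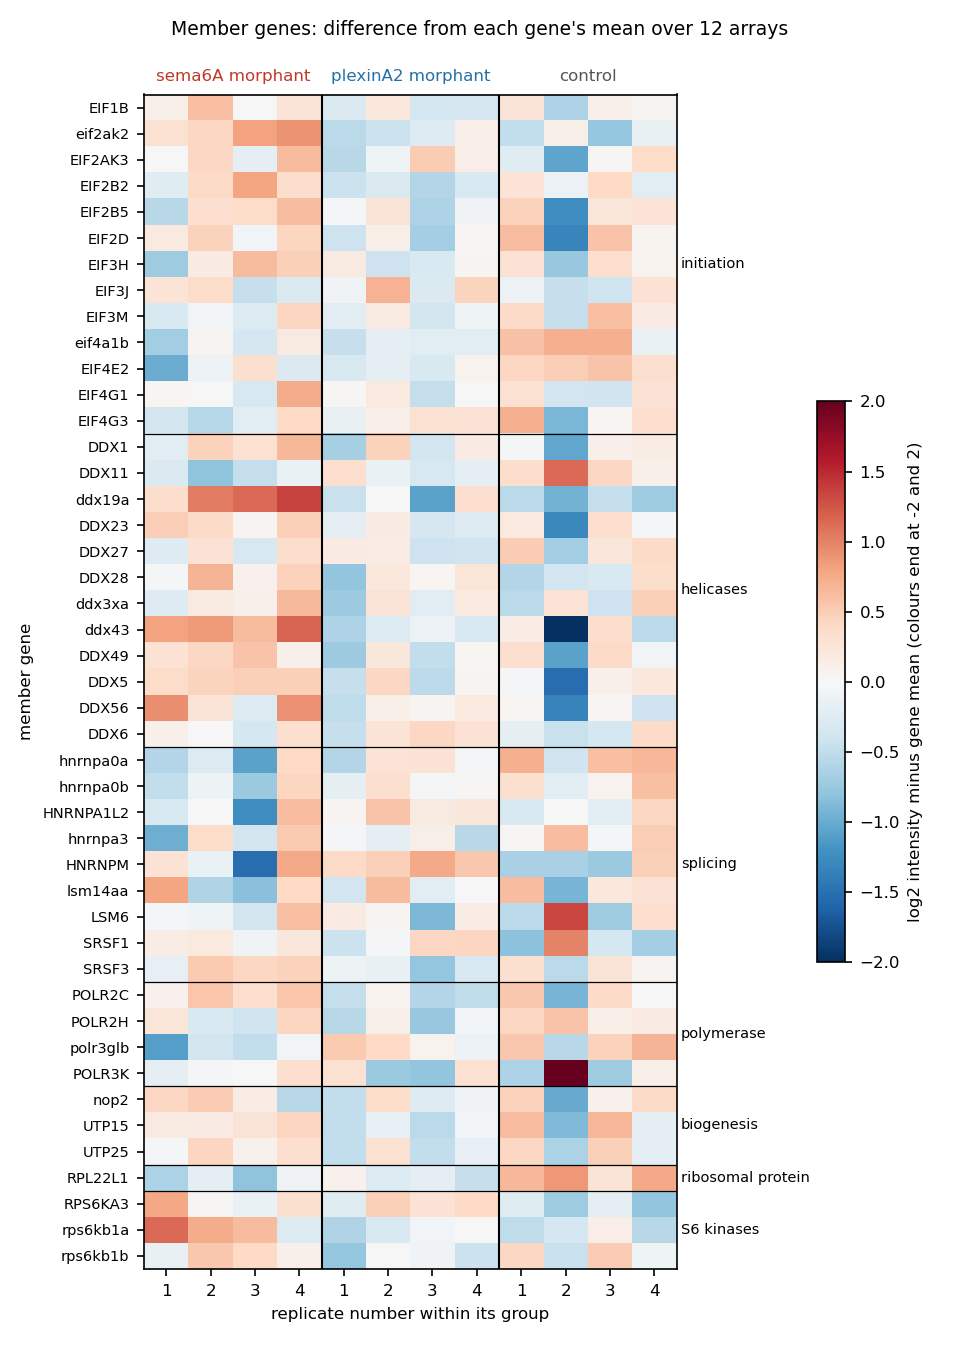
Log2 intensity of the 45 genes (rows, by role) on the 12 arrays (columns, by group and replicate) as the difference from each gene's mean, red above and blue below it, with the colours ending at 2 on either side. The column of control replicate 2 is the bluest in the initiation, helicase and biogenesis blocks, and the row of ddx19a is red in all 4 sema6A columns and blue in all 4 control columns.

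Genes of the same processes outside the prefixes were read from lists of textbook members. Of 8 measured genes on a list of elongation, termination and related translation factors, MKNK2 and PAIP1 among them, none passed in any comparison. The smallest adjusted p values were those of EEF2K, the kinase that inhibits elongation factor eEF2, at −1.12 in sema6A morphants against control (adjusted p = 0.0625) and −1.24 against plexinA2 morphants (adjusted p = 0.0535, and 0.0277 without control replicate 2). The 3 measured aminoacyl-tRNA synthetase genes, SARS1, YARS1 and RARS1, which charge tRNAs with amino acids, were 0.69 to 0.84 higher in sema6A morphants than in controls and 0.70 to 0.82 higher than in plexinA2 morphants, and none passed. Control replicate 2 was far below the other controls for each, at 10.99 against 13.01 to 13.44 for SARS1, 10.17 against 11.96 to 12.64 for YARS1 and 10.54 against 12.01 to 12.46 for RARS1. Without it the differences of sema6A morphants from control were 0.14 for SARS1, 0.30 for YARS1 and 0.28 for RARS1. None of the 3 passed between the morphants without control replicate 2 alone. All 3 passed when sema6A replicate 1 was left out as well. That fit called far more rows of the whole table than the fit of all 12 arrays did.

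Of 11 further ribosome biogenesis genes none passed. Their median was 0.19 in sema6A and −0.06 in plexinA2 morphants against control, and 0.41 between the morphants, with 10 of 11 higher in sema6A morphants. Without control replicate 2 the medians against control were −0.09 in sema6A morphants, with 8 of 11 lower, and −0.54 in plexinA2 morphants, with all 11 lower. Of 22 further rows of splicing genes none passed either, and the medians ran the other way: −0.21 in sema6A and 0.16 in plexinA2 morphants against control, and −0.39 between the morphants, with 5 of 22 higher in sema6A morphants. Without control replicate 2 the medians against control were −0.32 in sema6A and 0.00 in plexinA2 morphants. Whether the splicing and biogenesis lists differ from each other was not tested.

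Of 11 general factors of the RNA polymerases, 1 passed. The gene brf2 (ENSDARG00000002060) encodes a TFIIB-related factor that brings RNA polymerase III to promoters such as that of U6 snRNA. The arrays had 10.57, 10.16, 10.13 and 10.01 in sema6A morphants, 8.66, 9.01, 8.21 and 8.96 in plexinA2 morphants, and 9.32, 8.62, 9.20 and 9.32 in controls. The sema6A arrays lay above all 8 others. It rose in sema6A morphants by 1.102 ± 0.287 against control (adjusted p = 0.0428) and by 1.51 ± 0.29 against plexinA2 morphants (adjusted p = 0.0199). Leaving out each array in turn, the first call was lost 10 times of 12 (adjusted p up to 0.102) and the second 5 times (up to 0.0903). Of the leave-one-out fits, the first held without sema6A replicate 4 and without control replicate 4. Over all 21 alternatives the first held under 5, with adjusted p values up to 0.137, and the second under 16. The second was lost without sema6A replicate 2 or 3 or plexinA2 replicate 1, 3 or 4.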

How the data were processed

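Total RNA was measured on 12 single-colour arrays, and RMA is named in the submitters' processing notes. The authors deposited intensity values on a linear scale (26.3 to 42222). Because RMA brings arrays to a common level, a shift of every gene at once is invisible. Of the 5134 rows, 4349 had a symbol in the gene name table; the sources used here do not say how rows were chosen. Arrays are labelled biological replicates without naming separate clutches, so p-values may measure technical spread. The number of arrays limits the precision.

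Values were taken to log2 without a pseudocount and fitted with limma 3.58.1 (R 4.3.3) over all 12 arrays with group as the only term, 2-sided, with Benjamini-Hochberg adjustment over the 5134 rows of each comparison. The script was tested on simulated data. Members, gene lists and tests were chosen with earlier results of these data known. Named were called genes, the smallest p values per role class (3 against control) and the 5 largest differences each way; others are said to be chosen afterwards or given to complete a class. The alternatives were a replicate block, only the groups compared, quantile normalization, median centring, a pseudocount of 50, the dimmest 25 percent left out, trended and robust eBayes, array weights, each array left out and 2 arrays left out. Only some same-numbered arrays deviated together (3 of 12 correlations over 0.1), so the numbers were not taken to pair arrays. No sequences are printed.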

Additional observations from a re-analysis of the deposited data

Results flagged for a closer look

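By Dixon's test at the 95% level, 1 array stood apart from its group in 12 of the 135 gene groups of 4 arrays (8.89%). The same was seen in 2 class levels, for which no share was taken. This test flags about 5% of groups by chance. The share over all rows of the table was not taken. Whether these genes were flagged more often than the whole table was therefore not tested. Control replicate 2 was the low array for EIF2B5 (11.35, against 12.82 to 13.05 in the other controls), DDX1 (9.67 against 10.67 to 10.85), DDX5 (12.02 against 13.51 to 13.75) and hnrnpa0a (11.63 against 12.62 to 12.73). The helicase class level on that array was −0.99. Control replicate 4 was apart for eif4a1b (8.72 against 9.43 to 9.58) and HNRNPM (14.45 against 13.21 to 13.32).

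Among plexinA2 arrays, replicate 1 was low for eif4a1b (8.39 against 8.63 to 8.67), DDX6 (12.38 against 13.11 to 13.25) and the S6 kinase class level (−0.61). Replicate 2 was high for EIF1B (12.76 against 12.20 to 12.27) and POLR2C (12.52 against 11.87 to 11.97), and replicate 3 was low for LSM6 (9.62 against 10.57 to 10.68). Among sema6A arrays, replicate 1 was low for SRSF3 (13.33 against 13.90 to 14.00). The source of these deviations was not tested.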

How the results depend on the processing

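The 21 alternatives included 12 that left out 1 array. In sema6A morphants against control, 2 of the 45 genes were called, 1 with the replicate block, 1 in a fit of only the groups compared, 1 after quantile normalization, 12 with array weights and 1 to 3 without 1 array. Over all rows the count of 160 became 47 in a fit of only the groups compared, 1407 with array weights and 66 to 226 without 1 array. In plexinA2 morphants against control, 0 of the 45 became 10 with array weights and remained 0 without any 1 array. The 147 rows became 1629 with array weights, 275 without both outlying arrays (control replicate 2 and sema6A replicate 1) and 79 to 326 without 1 array. Between the morphants, 0 of the 45 became 3 in a fit of only the groups compared, 1 each after quantile normalization, median centring or with a pseudocount of 50, 11 with array weights, 6 without both outlying arrays and 0 to 3 without 1 array. The 88 rows became 144 with the replicate block, 743 with only the groups compared, 158 after quantile normalization, 146 after centring, 136 with the pseudocount, 2273 with array weights, 880 without both outlying arrays and 6 to 495 without 1 array.

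The replicate block called 0 of the 45 in both other comparisons; the correlations of same-numbered arrays lay between −0.24 and 0.36, with 3 of 12 over 0.1. The median of the 45 genes turned sign without 1 array in plexinA2 morphants against control (−0.3231 to 0.0033, with 0.0026 without control replicate 4). It stayed at 0.0502 to 0.2753 in sema6A morphants against control and at 0.154 to 0.3258 between the morphants. Leaving out an array of the group not compared cannot change such a median. Over all rows the median between the morphants lay between −0.0091 and 0.0308. Of 2832 values of single genes under an alternative, no called value turned sign, 14 lost a call (RPL22L1 in each), 52 gained one and 126 uncalled values turned sign. Array weights ranged from 0.158 for control replicate 2 to 4.82 for plexinA2 replicate 4; why they raised the counts was not tested.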

Other observations

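Among pathway genes outside the prefixes, CELF2 and CLK2, an RNA-binding regulator of splicing and a kinase of SR proteins, were at −1.21 and −1.07 in sema6A against plexinA2 morphants (adjusted p = 0.0695 and 0.0556). EEFSEC, which brings selenocysteine to the ribosome, was at 1.14 in the same comparison (adjusted p = 0.0676), and EXOSC6, a subunit of the RNA exosome, at 0.96 (adjusted p = 0.144). brf1a, the gene of the factor that works at tRNA promoters, was 0.82 above control in sema6A morphants (adjusted p = 0.0790) and 0.51 above it in plexinA2 morphants (adjusted p = 0.323). None of these 5 passed with all arrays, although without control replicate 2 CELF2 (adjusted p = 0.0361), CLK2 (0.0277) and EEFSEC (0.0327) did between the morphants. In that comparison 88 of all rows passed with all arrays, and 6 to 495 in the fits without 1 array. All 5 were singled out after their values were seen.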
